A study of Zea mays and Triticum urartu with 3 samples.

Results

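The loci described here were listed under an assembly identifier in maize RNA libraries and overlapped no listed gene. In the 2 maize tables they were the loci on chromosomes 1 to 10 that carried an assembly identifier and no Zm00001d gene identifier, overlapped no Zm00001d locus of either table, spanned at least 300 bp and had an FPKM above 0. FPKM counts fragments per kilobase of transcript, scaled to the mapped fragments of the library. The rule kept 9619 loci of the 45374 listed for RIP and 9168 of the 46011 listed for Input, 18787 of 91385 in all. The loci were thus chosen by measured values, namely their span, their FPKM and their overlap with genes, so the numbers of loci and their least values describe the choice and are not results.

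The B73-RIP library held RNA from young leaves of the maize inbred line B73 that was precipitated with an antibody to CENH3. The B73-Input library came from young leaves of B73 as well, with no antibody named for it outside the extraction text. Plants of both groups were grown in a greenhouse. The study's methods describe leaves cross-linked with formaldehyde, chromatin digested with DNase I, removal of rRNA and 125-bp paired-end sequencing. The labels carry the same anti-CENH3 extraction text for both groups, so they do not settle how Input was handled. Each group was 1 library, so no difference has a replicate check and no p-value is given. A wheat leaf library of the series was not used here.

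CENH3 is the histone H3 variant that replaces H3 in the nucleosomes of active centromeres, and RNA bound to chromatin that carries it comes down with the antibody. Maize centromeres consist mainly of the satellite CentC and of centromeric retrotransposons (CRM elements), in regions where genes are sparse. RNA made from such repeats carries no gene identifier, and can enter a gene-based table only as a locus assembled from the reads.

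Both libraries placed a large share of their nuclear fragments in these loci. How many fragments stood behind an FPKM was derived from its upper confidence limit, as (2 × FPKM/(upper limit − FPKM)) squared. The loci held 244733 of the 456321 implied fragments on chromosomes 1 to 10 in RIP, or 53.6%, and 603930 of 716933 in Input, or 84.2%. Much of the Input share came from a single locus of chromosome 10. With the highest locus of the set taken out of both set and total, the shares came to 51.2% (RIP) and 67.5% (Input). Annotated loci held 26.4% in RIP and 7.06% in Input.

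Most of these loci had the same ends in both tables, to the base. Of the RIP loci, 7796 (81.0%, 95% Wilson interval 80.3 to 81.8) started and ended on exactly the same bases as an assembled Input locus, and 7229 Input loci (78.9%, 78.0 to 79.7) did so in RIP. These are called same-coordinate loci, and they include 795 RIP loci (10.2%) and 262 Input loci (3.62%) whose counterparts were listed at FPKM 0 only. A further 1167 RIP loci (12.1%) and 1315 Input loci (14.3%) had different ends but shared bases with a locus of the other library, and are called overlapping loci. The remaining 656 RIP loci (6.82%, 6.33 to 7.34) and 624 Input loci (6.81%, 6.31 to 7.34) had no locus of any kind at the same place in the other table and are called single-library loci. Over all nuclear loci above 0, 2.48% in RIP and 4.38% in Input had no listed locus at the same place in the other library. The rule used the gene positions of both tables, so nothing is read from that difference. These intervals cover counting error within a library only.

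The gene identifiers pointed the same way. Maize identifiers of this annotation run in order along a chromosome, and 31459 of the 33530 identifiers listed in either table stood in rising order. Between neighbouring listed genes, 19606 identifier numbers were carried by no locus of either table. Of the same-coordinate loci with a listed gene on both sides, 99.8% in RIP and 99.9% in Input lay in an interval with at least 1 such unlisted number. Among all 31449 intervals between listed genes the share was 36.1%, and these intervals made up 66.6% of the intergenic length. Overlapping loci lay in such intervals in 92.8% (RIP) and 92.5% (Input) of cases. Single-library loci did so in 67.6% (63.9 to 71.1) and 71.4% (67.8 to 74.8), near the share of length. The name of loci outside annotated genes therefore goes against the data for the same-coordinate class. The loci are called here assembled loci without a listed gene, where assembled refers to their identifier only. No test was made of whether each was built from reads. Whether each unlisted number belongs to the locus beside it was not tested, since no annotation of this build was used.

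**Figure D1:**
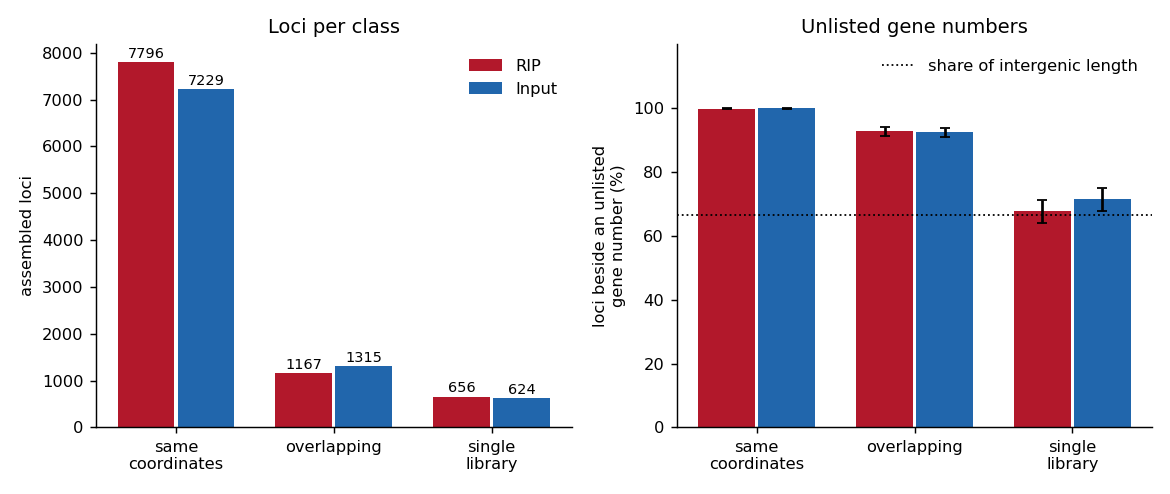
Left, the number of assembled loci without a listed gene in each of 3 classes, for RIP (red) and Input (blue). Right, the percentage of them that lay between neighbouring listed genes whose identifier numbers skip at least 1 value, with 95% Wilson intervals as error bars, and a dotted line at 66.6%, the share of intergenic length in such intervals. Same-coordinate loci reach 99.8% and 99.9%, while single-library loci sit at 67.6% and 71.4%, beside the dotted line.

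The classes differed in size. Same-coordinate loci had a median span of 5807 bp in RIP and 5897 bp in Input, and the longest reached 93328 bp, at 1:6068283-6161610 in both libraries (positions are 1-based, B73 RefGen_v4, chromosome first). Annotated loci of at least 300 bp and above 0 had medians of 1904 bp and 2493 bp. Overlapping loci were shorter, with medians of 1475 bp (95% rank interval 1360 to 1671) in RIP and 838 bp (765 to 924) in Input. Single-library loci were the shortest, with medians of 1054 bp (1005 to 1113) in RIP and 512.5 bp (490 to 544) in Input. The median of the last class was thus longer in RIP than in Input. The rank intervals concern the median over loci within 1 library and do not test a difference between libraries. The upper quartiles of these loci were 1445 bp and 714 bp.

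Same-coordinate loci, the longest, had the fewest fragments. The median was 4.58 implied fragments at same-coordinate loci in RIP and 7.0 in Input, 16.0 in both libraries at overlapping loci, and 19.0 (RIP) and 15.0 (Input) at single-library loci. Per kilobase of span, the medians rose from 0.737 fragments (RIP) and 1.10 (Input) at same-coordinate loci to 17.4 (16.9 to 18.0) and 28.7 (27.8 to 29.8) at single-library loci. Annotated loci of at least 300 bp had medians of 1.39 and 1.49 fragments per kb. Per kilobase of span, same-coordinate loci thus had fewer fragments than annotated loci, and overlapping loci, with 14.1 and 23.9, had more. Median FPKM, scaled to transcript length, put same-coordinate loci above annotated loci instead. It was 0.146 beside 0.0534 in RIP and 2.18 beside 1.70 in Input. Median fragments per locus were higher too, 4.58 beside 2.25 in RIP and 7.0 beside 4.0 in Input.

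Single-library loci also had a floor. None had fewer than 10.0 implied fragments in either library, to the rounding of the limits. Same-coordinate loci reached down to fractions of a fragment, which are derived values and not read counts. The derived number was whole, within 0.02, at 72.4% of the single-library loci in RIP and 92.9% in Input, against 27.8% and 32.2% of the same-coordinate loci. A locus missing from the other table may therefore have had RNA there below this floor. The floor also sets a least fragment number for these short loci. Their higher fragment numbers and densities beside same-coordinate loci are therefore not read as a result. Of the overlapping loci, 86.0% in RIP and 88.2% in Input had at least 10 fragments too, and they were short. Their densities are not read as a result either.

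**Figure D2:**
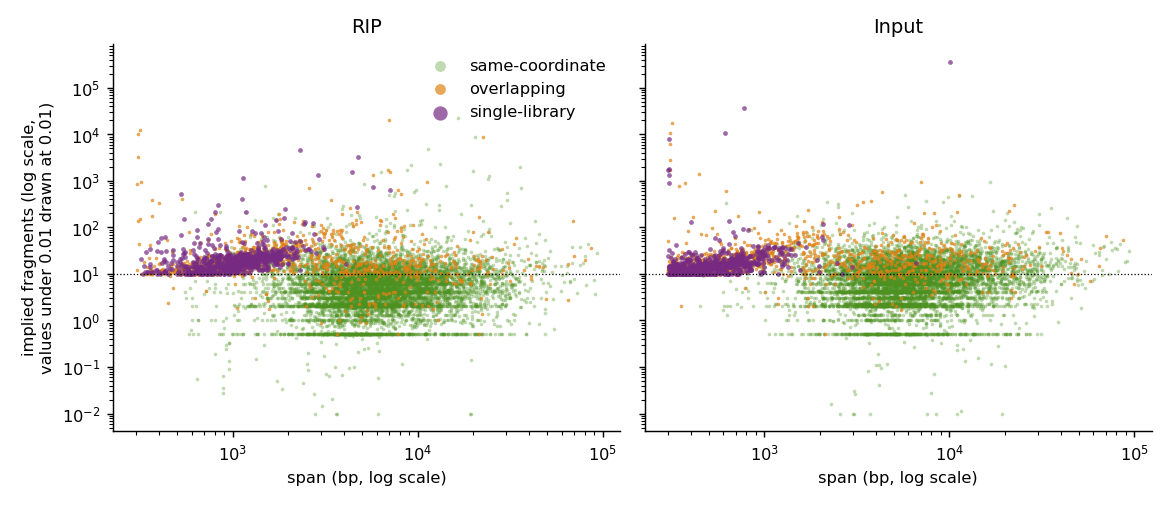
Span of each locus in bp (log scale, horizontal) against its implied fragments (log scale, vertical, values under 0.01 drawn at 0.01), for RIP on the left and Input on the right, with a point per locus coloured by class and a dotted line at 10 fragments. Single-library loci form a band of short loci from 10 fragments upward, same-coordinate loci spread from under 1 fragment at spans of several kb, and a column of loci at 301 to 317 bp rises to 17831 fragments in Input.

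FPKM itself put the libraries on different scales. The median FPKM of all these loci was 0.187 in RIP and 2.96 in Input, and at single-library loci it was 1.55 and 24.7, while their fragment medians stood at 19.0 and 15.0. Over 4761 paired loci with at least 3 fragments in each library, a fixed FPKM corresponded to 11.1 times as many implied fragments in RIP as in Input (median; 4.02 to 45.5 between the 10th and 90th percentiles). Fragment numbers are therefore given beside FPKM throughout. They were divided by no library total, and the study's methods give more read pairs for RIP than for Input.

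Few loci held a large part of the fragments. At least 50 fragments were present at 290 loci in RIP and 275 in Input, about 3.0% of either set, and at least 1000 at 24 and 13. Of these loci with at least 50 fragments, 46 in RIP (15.9%) and 20 in Input (7.27%) had no listed locus in the other table. All nuclear loci of that depth gave 8.93% (50 loci) and 6.46% (31 loci), and they include the loci of this set. The rule used the gene positions of both tables, so nothing is read from these differences. The 10 highest loci held 40.4% of the RIP fragments of this set and 77.4% of those of Input. At same-coordinate loci, 11 loci in RIP and none in Input reached 1000 fragments.

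The highest locus of RIP was a same-coordinate locus of 16576 bp at 5:209654501-209671076, which lay 0.672 kb from a listed gene. It had 352 FPKM (lower and upper limits 347 to 357) from 22456 fragments in RIP, and 151 FPKM (141 to 160) from 968 fragments in Input. It was also the highest same-coordinate locus of Input. The limits did not overlap, and RIP was higher by 1.22 on the log2 scale of FPKM + 1 and by 4.54 on that of fragments + 1. The second, an overlapping locus of 7038 bp at 2:20519841-20526878, had 148 FPKM (146 to 150) from 20518 fragments in RIP. The Input locus of 7005 bp had 121 FPKM (113 to 128) from 929 fragments. Long loci of this kind, with far more RIP than Input fragments, recurred at 6:126730484-126750885 and 2:239399094-239421613. The former had 156 FPKM from 8813 RIP fragments and 22.4 FPKM from 209 Input fragments. The latter had 140 FPKM from 8783 fragments and 28.1 FPKM from 297 fragments. At 2:189658754-189670074, of 11321 bp, the scales went opposite ways, with 26.8 FPKM from 4876 fragments in RIP and 36.5 FPKM from 478 fragments in Input.

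A second kind of high locus was very short. Among the loci with at least 500 fragments, 10 of 22 in Input and 4 of 42 in RIP spanned no more than 320 bp, between 301 and 317 bp. Loci of 300 to 320 bp numbered 88 in Input and 10 in RIP, and held 9.04% and 10.9% of the fragments of this set. At 9:20238180-20238496, RIP had 8356 FPKM from 12237 fragments and Input 79552 FPKM from 17831 fragments. On the same chromosome, 9:20383581-20383889 had 7313 FPKM from 9997 fragments in RIP and 51989 FPKM from 10920 fragments in Input. At 7:158600941-158601246, the values were 2451 FPKM from 3262 fragments in RIP and 29439 FPKM from 6184 fragments in Input. At these 3 loci the log2 ratio of FPKM + 1 was −3.25, −2.83 and −3.59, in that order, and the log2 ratio of fragments + 1 was −0.54, −0.13 and −0.92. Input was higher on both scales, by less in fragments.

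Loci present in both libraries could be compared directly. When the loci of both libraries were paired by reciprocal overlap of at least 0.5, 7532 pairs formed, 78.3% of the RIP loci and 82.2% of the Input loci, and 6948 of the pairs (92.2%) had identical coordinates. On the FPKM scale, 4545 pairs had a mean of at least 1. A 2-fold or larger excess in RIP was seen at only 10 of these (0.220%), where all nuclear pairs gave 0.997%, and 4390 (96.6%) were at least 2-fold lower, where all nuclear pairs gave 95.8%. Their median log2 ratio was −2.04, beside −2.07 over all 9023 nuclear pairs tested. In 4151 of the 4545 pairs, the RIP FPKM was under 1. The lower share was close to that of all nuclear pairs, and the higher share was below it. Most pairs thus passed the filter through their Input FPKM, which largely fixed a lower value in RIP. The shares and the median on this scale are therefore not read as a result.

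On the fragment scale the picture was less lopsided. Of 2699 pairs with at least 20 fragments in sum, RIP was 2-fold or more above Input at 313 (11.6%) and 2-fold or more below it at 816 (30.2%), where all nuclear pairs gave 18.3% and 27.5%. The median log2 ratio of fragments + 1 was −0.48 (95% rank interval −0.52 to −0.43), beside −0.30 over all 4357 pairs. The 2197 pairs with identical coordinates had a median of −0.52 and the 502 others one of −0.29. The direction of the FPKM median depended on the scaling. When FPKM was rescaled to the same upper quartile in both libraries, the median ratio was 0.76, with RIP higher.

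**Figure D3:**
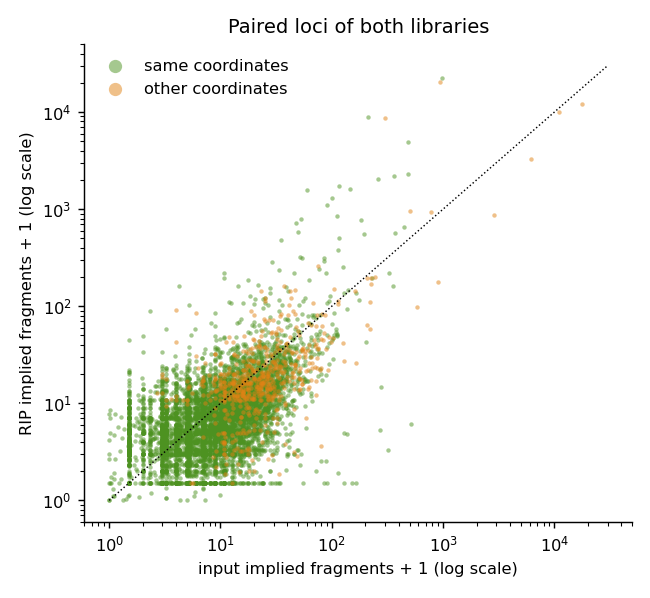
Implied fragments + 1 of each paired locus in Input (log scale, horizontal) and in RIP (log scale, vertical), with a point per pair, green for identical and orange for other coordinates. The dotted line marks equal numbers. Most pairs lie under 100 fragments around or below the line, a group of long loci stands well above it up to 22456 RIP fragments, and a few short loci lie just below it in the upper right corner, up to 17831 Input fragments.

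Both ends of the ratio held loci with identical coordinates, which were chosen for their values and carry no test. Their fragment numbers are derived from the limits and are not read counts. The highest fragment ratio, 5.39 on the log2 scale, belonged to 6:126730484-126750885 (above). At 10:38844199-38849055, RIP had 162 fragments and 6.72 FPKM, and Input 3.20 fragments and 3.50 FPKM. At 5:127459293-127465455, RIP had 88.4 fragments and 5.45 FPKM (4.29 to 6.60), and Input 1.33 fragments and 0.607 FPKM (0 to 1.66), so both scales put RIP higher. At 7:1388811-1390530 they did not, with 44.0 fragments and 0.371 FPKM in RIP and 0.513 fragments and 0.861 FPKM in Input. At the other end, 6:159136660-159139149 had 2.27 fragments and 0.0230 FPKM in RIP (0 to 0.0536) and 322 fragments and 80.1 FPKM in Input (71.2 to 89.0). The locus at 5:169533606-169538843 had 0.50 fragments in RIP and 164 in Input, and 4:2606137-2607496 had 0.513 and 127. The second highest same-coordinate locus of Input, 5:123917296-123923030, followed the same course, with 509 fragments and 198 FPKM there and 5.05 fragments and 0.280 FPKM in RIP.

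Position along the chromosomes separated the classes again. The gene-poorest 10 Mb of each chromosome served as a stand-in for its centromere region, since no centromere coordinates were used. These windows covered 4.75% of the chromosome length and 1.29% of the listed genes. They held 2.09% of the loci in RIP (201) and 2.17% in Input. Same-coordinate loci were even sparser there than genes, with 0.757% in RIP (0.587 to 0.975) and 0.733% in Input. Overlapping loci stood at 6.17% and 6.08%, and single-library loci at 10.7% in RIP (70 of 656; 8.53 to 13.3) and 10.6% in Input (66 of 624), above the share of length in both libraries.

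The ends of the chromosomes gave the reverse order. The outer 10 Mb of both arms, 9.50% of the length, held 16.9% of the listed genes. They held 20.2% of the same-coordinate loci in RIP, 14.8% of the overlapping and 10.1% (7.99 to 12.6) of the single-library loci. In Input, single-library loci stood at 14.3%. Counted in 2110 bins of 1 Mb, same-coordinate loci followed the listed genes, with a Pearson correlation of 0.595 in RIP and 0.590 in Input, while single-library loci did not (−0.053 and −0.036). Between the libraries, bin counts correlated at 0.970 for same-coordinate loci, at 0.813 for overlapping loci and at 0.244 for single-library loci. Same-coordinate and overlapping loci have a counterpart by definition and single-library loci have none, so this order is not a result. These correlations are descriptions across bins that share the same genome, and have no p-value.

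Single-library loci with many fragments were then placed against the windows. Of the 46 with at least 50 fragments in RIP, 13 lay in the gene-poorest windows (28.3%, 17.3 to 42.5), and of the 20 in Input 1 did (5.0%, 0.888 to 23.6). Within 10 Mb of the window centres, a length equal to that of the chromosome ends, there were 19 of 46 (41.3%, 28.3 to 55.7) and 2 of 20 (10.0%, 2.79 to 30.1). The intervals overlapped in both cases, so no difference between the libraries is read from these counts. In fragments, the windows held 31.9% of those at single-library loci in RIP, or 19.3% without the highest locus, and 0.257% in Input, or 1.55% without its highest locus. Overlapping and same-coordinate loci with at least 50 fragments showed no such share in RIP, with 3 of 116 (2.59%) and 3 of 128 (2.34%) in the windows. Of the paired loci in the windows, 41 had at least 20 fragments in sum. Their median log2 fragment ratio was −0.46 (−0.58 to −0.19), beside −0.48 over all such pairs of this set. RIP was 2-fold or more higher at 2 (4.88%) and lower at 11 (26.8%), where all such pairs gave 11.6% and 30.2%.

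**Figure D4:**
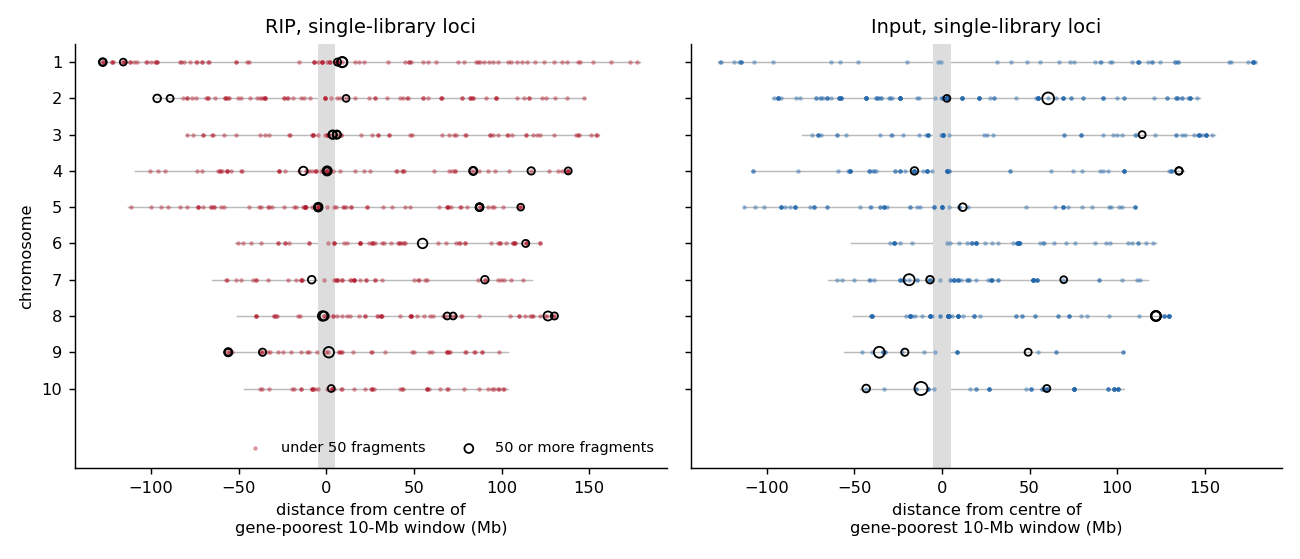
Single-library loci of RIP (left, 656) and Input (right, 624) by chromosome (vertical) and by distance in Mb from the centre of that chromosome's gene-poorest 10-Mb window (horizontal). The window is shaded, grey lines span the chromosomes, filled points have under 50 implied fragments and open circles, larger with more fragments, have 50 or more. In RIP 13 of 46 open circles fall in the shaded band, and in Input 1 of 20 does.

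The 13 RIP loci lay on 6 chromosomes and 23.7 to 458 kb from the nearest listed gene. The highest, 9:57391597-57393895, was 1.39 Mb from its window centre, spanned 2299 bp and had 4735 fragments. On chromosome 8, a locus of 1132 bp at 8:48874623-48875754 had 1141 fragments, and a locus of 527 bp at 8:49736649-49737175 had 118 FPKM (107 to 128) from 514 fragments. On chromosome 4, 4:109453691-109459424 was 0.457 Mb from the centre and 402 kb from a listed gene, with 9.39 FPKM (8.71 to 10.1) from 757 fragments over 5734 bp, and 4:109406245-109407706, to its left, had 52.3 fragments. Chromosome 3 had 274 fragments at 3:83641379-83646077 and 163 at 3:83532050-83533945, 359 and 458 kb from the nearest gene. On chromosome 10, 10:49783535-49784367 had 57.4 fragments.

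The remaining 5 of the 13 formed a row on chromosome 5, near the edge of its window. They ran from 5:108325425-108327128, with 148 fragments, to 5:108357823-108358944, with 406 fragments and 31.1 FPKM (28.0 to 34.2). Between them, 5:108327431-108329732 had 50.3 fragments, 5:108339257-108340583 had 74.97 and 5:108355183-108356672 had 114. Loci of such a row may come from a single transcript or repeat and are not independent. None of the 13 had a listed locus in Input at the same place, so no ratio can be given.

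Other RIP loci of this class lay just outside the windows or far from them. The pair at 1:137111656-137116433 and 1:137052994-137057406, with 3270 and 1561 fragments, was 9.11 and 9.06 Mb from the window centre of chromosome 1, and 355 and 296 kb from the nearest listed gene. On chromosome 3, 3:85929815-85931743 (246 fragments) and 3:85932258-85932992 (122 fragments) were 5.93 Mb from the centre. In contrast, 6:106902982-106905857 lay 54.9 Mb from the centre, 7.76 kb from a gene, with 1315 fragments. The locus at 8:177441290-177448404, 126 Mb from the centre, was the longest single-library locus of RIP at 7115 bp and had 638 fragments.

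The outer 10 Mb of the chromosomes held 12 of the 46 (26.1%), some of them close to the very end. On chromosome 9, 3 loci lay in the first 10 kb of the assembly, 9:1573-2755 with 220 fragments, 9:3001-4476 with 61.3 and 9:8168-9251 with 83.8. On chromosome 1, 1:448143-448875 and 1:458253-459016 had 57.3 and 151 fragments. Well inside chromosome 5, beyond its outer 10 Mb, a row between 5:200347592-200348138 and 5:200542195-200543009, had 4 loci with 77.3 to 155 fragments, 50.1 to 85.1 kb from the nearest gene.

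The corresponding Input loci were of another make. The highest, 10:35055011-35065115, was 10105 bp long, the longest single-library locus, and held 51.5% of all nuclear Input fragments with 369287. Its distance from the window centre was 11.9 Mb. Next came 2:157586170-157586941, with 51115 FPKM (50588 to 51642) from 37659 fragments over 772 bp, and 7:46263322-46263932, with 13435 FPKM from 10847 fragments over 611 bp. The fourth, 9:20239483-20239787, had 8109 fragments over 305 bp and lay about 1 kb from the shared short locus at 9:20238180-20238496. On chromosome 8, 4 loci of 301 to 306 bp followed each other from 8:173051331-173051636 to 8:173130571-173130875, with 1807, 1761, 909 and 1355 fragments. All other Input loci of this class had at most 135 fragments. Without the highest locus of the class in each library, single-library loci held 21.1% of the nuclear fragments in Input and 5.66% in RIP.

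Distance to genes followed the same classes. The distance is the gap to the nearest Zm00001d locus of either table. Its median was 11.3 kb in RIP (10.6 to 12.1) and 11.2 kb in Input (10.4 to 11.99). Same-coordinate loci were nearest, at 8.48 kb in both libraries. Of them, 17.0% (RIP) and 17.1% (Input) lay within 1 kb of a gene, where 2.98% of the length outside genes did. Loci are measured from their edges and length by single bases, so these shares are unlike measures, most of all for long loci. Overlapping loci stood at 19.4 and 19.6 kb. Single-library loci stood at 21.1 kb in RIP (19.9 to 25.3) and 16.9 kb in Input (14.4 to 19.7). The intervals count grouped loci singly within 1 library each, so no difference between the libraries is read from them.

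The shares of single-library loci near genes stood somewhat above those of the length in both libraries. Within 5 kb lay 14.8% in RIP (12.3 to 17.7) and 22.3% in Input (19.2 to 25.7), where 12.5% of the length did. Within 50 kb the shares were 72.4% and 79.0%, where 67.8% of the length lay. Among those with at least 50 fragments, the median was 55.4 kb in RIP (39.4 to 66.6) and 5.81 kb in Input (3.01 to 36.5). Of the 46 in RIP, 28 (60.9%) were over 50 kb from a gene, and of the 20 in Input 2 (10.0%) were. Beyond 50 kb lay 32.2% of the length outside genes, and 27.6% (RIP) and 21.0% (Input) of all single-library loci. Rows of neighbouring loci are counted singly here, so no difference between the libraries is read from these shares.

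**Figure D5:**
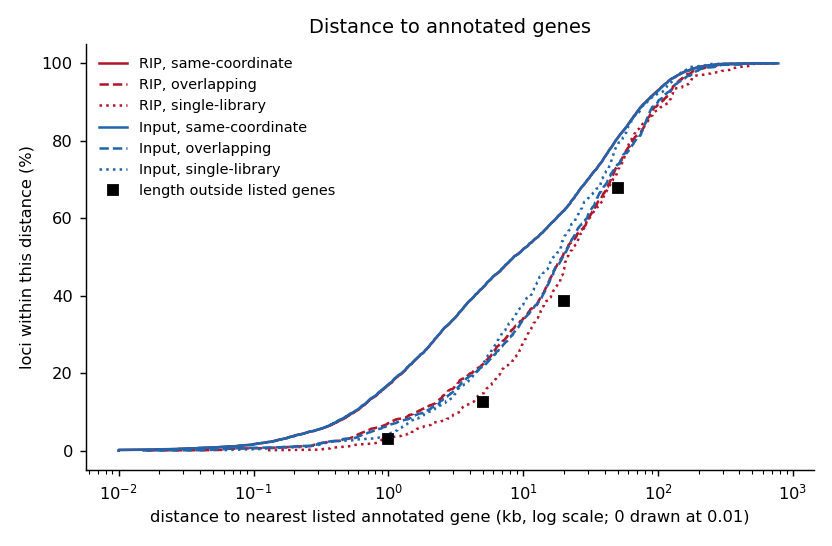
Cumulative percentage of loci (vertical) within a given distance in kb of the nearest listed gene (log scale, horizontal, 0 drawn at 0.01), red for RIP and blue for Input, with solid lines for same-coordinate, dashed for overlapping and dotted for single-library loci. Black squares give the length outside listed genes, counted by single bases, within 1, 5, 20 and 50 kb (2.98%, 12.5%, 38.6% and 67.8%). The same-coordinate lines of both libraries coincide and rise earliest, and the dotted RIP line runs closest to the squares.

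The loci farthest from genes came from the same stretch of chromosome 7 in both libraries. The same-coordinate locus at 7:69632158-69638892 was 751 kb from the nearest listed gene, with 11.7 fragments in RIP and 15.0 in Input. A RIP locus of 342 bp at 7:69450327-69450668 was 750.2 kb away with 11 fragments, and an Input locus of 978 bp at 7:69518404-69519381 was 818 kb away with 21.0 fragments. The shared locus had 0.120 FPKM (0.0499 to 0.190) in RIP and 4.24 FPKM (2.05 to 6.43) in Input, while the other two had no counterpart to compare.

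Single-library loci were more often grouped in Input. When loci within 10 kb of each other were joined, the 9619 RIP loci formed 7835 groups and the 9168 Input loci 7219. Of the single-library loci, 24.8% in RIP and 54.8% in Input were in groups of more than 1. The largest group of Input had 29 loci over 8:54505110-54550514, with 869 fragments, inside the gene-poorest window of chromosome 8. RIP had 16 loci over nearly the same stretch, 8:54505278-54548723, with 479 fragments, its largest group too. The largest groups of single-library loci had 11 loci and 184 fragments in Input (2:99810163-99840434) and 5 loci and 567 fragments in RIP (5:108355183-108360374). Loci in such a group were counted singly in the shares above, which makes their intervals too narrow.

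Of the genes that the study placed in centromeric regions, Zm00001d030471, which its text lists among both active and unexpressed genes, and Zm00001d004256 were looked up with their nearest assembled loci, and Zm00001d004248 was not used here. Nearest to Zm00001d030471 in RIP was the single-library locus 1:134384842-134386932, with 2.81 FPKM (2.17 to 3.45) from 76.6 fragments. In Input it was the same-coordinate locus 1:132949477-132950099 of 623 bp, with 392 FPKM (349 to 435) from 328 fragments. This locus had 104 FPKM (90.4 to 119) from 220 fragments in RIP, where the locus named before it was nearer. Distances to the 2 genes are not given, so nearest does not mean close. Nearest to Zm00001d004256 were an overlapping RIP locus of 500 bp at 2:98027789-98028288, with 3.77 FPKM from 15.0 fragments, and a single-library Input locus at 2:97660827-97661431, with 19.7 FPKM from 16.0 fragments. The Input locus that overlapped the former had 31.5 FPKM from 22.4 fragments.

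At the threshold of 300 bp, the locus just inside was 1:19960628-19960929 in RIP (302 bp, 863 fragments) and 10:3754300-3754599 in Input (300 bp, 24.7 fragments). Just outside were 6:85368531-85368829 in RIP (299 bp, 25 fragments) and 10:3746832-3747130 in Input (299 bp, 61.4 fragments). Left out below it were 99 RIP and 460 Input loci, and 659 and 1230 longer loci were listed at FPKM 0. Of the loci kept, 2 (RIP) and 1 (Input) shared bases with a locus that had another kind of gene name, 13 and 16 shared an identifier with another, and 291 and 337 overlapped the locus before them.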

How the data were processed

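RNA of 1 RIP and 1 Input library of maize B73 was analysed. The deposited values were FPKM per locus with lower and upper confidence limits, which the authors made with Cufflinks. The submitters' processing notes name CASAVA, TopHat2 2.0.12, Cufflinks (no version given) and B73 RefGen_v4. The labels call the first library RIP and its locus identifiers RAC. The sources used here do not say if both tables passed the same filters, which bears on every locus listed in only 1 of them. File starts, counted from 0, were raised by 1. The members, classes and lists were chosen with earlier results of these data known.

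Loci were selected and compared with Python 3.11.15, NumPy 2.4.6, pandas 2.3.3 and SciPy 1.17.1, in code checked on simulated loci with known overlaps. Implied fragments read the deposited limits as 2 SDs of a Poisson count, so single values are not read counts and their sums are not read totals. Ratios were log2 with a pseudocount of 1, over pairs at or above a mean FPKM of 1 or a sum of 20 fragments, and 2-fold was called. Windows moved in 1-Mb steps, outside the outer 10 Mb. Wilson and rank intervals at 95% cover counting within a library only. No test was possible with 1 library a group. Named loci were those with most fragments in all and per class, the farthest, the longest and those beside the 300-bp limit or 2 genes of the study. Loci with 50 or more fragments in the single-library class and the extremes of the ratio were named after their values were seen. No sequence was read.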

Additional observations from a re-analysis of the deposited data

Results flagged for a closer look

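Assembled loci shorter than 300 bp that met every other criterion stood outside the comparisons but carried signal. They held 4.17% of the nuclear implied fragments in RIP, from 90 loci above 0, and 2.70% in Input, from 449 loci. The highest in both libraries was at 10:143162790-143163024, with 235 bp, 7553 FPKM and 4405 fragments in RIP. In Input it spanned 229 bp, with 31208 FPKM and 2757 fragments. The next, at 3:146709459-146709721, had 1477 fragments in RIP and 1374 in Input.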

How the results depend on the processing

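No paired analysis was possible because each group was 1 library without replicate numbers. Leaving out same-coordinate loci was a setting chosen after seeing the data. Groups of loci kept their number within 1.5 times under joining distances of 1 and 50 kb. The cause of the other shifts was not tested beyond what each setting leaves out. Values are, where given, the number of loci, median span, share of nuclear fragments, share of loci in the gene-poorest windows, median distance to a gene and share of loci paired. Depth limits the thinnest loci most, since single-library loci began at 10 fragments.

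Without same-coordinate loci, RIP had 1823 loci of 1221 bp, with 27.0% of fragments, 7.79% in windows, 20.2 kb and 32.0% paired, and Input 1939 loci of 667 bp, with 72.5%, 7.53%, 18.9 kb and 30.1%, at a median log2 FPKM ratio of −2.71. With 10 or more fragments, RIP had 3317 loci of 3219 bp, with 47.9%, 4.49%, 16.8 kb and 46.8% paired, and Input 4284 loci of 4361 bp, with 81.0%, 3.57%, 14.1 kb and 36.3%. With 3 or more, fragment shares were 52.7% (RIP) and 83.9% (Input), paired shares 67.4% and 62.8%, and in RIP 2.59% lay in windows, at 13.2 kb. At an FPKM of 1 or more, RIP had 1488 loci of 1079 bp, with 40.1%, 8.60%, 20.1 kb and 26.3% paired, and Input loci had 4734 bp, 83.6%, 12.1 kb and 5.32% paired. At a least span of 200 bp, fragment shares were 56.8% and 86.3%, and Input had 4950 bp and 79.9% paired. At 500 bp they were 47.0% and 75.1%, and Input had 5382 bp, 1.74%, 10.4 kb and 88.1% paired. With genes of the same table only, RIP had 4423 bp, 67.2%, 1.74%, 16.3 kb and 53.4% paired, and Input 4891 bp, 88.2%, 12.6 kb and 73.8%. Without loci within 1 kb of a gene, RIP had 44.3%, 17.7 kb and 76.5% paired, and Input 80.3%, 17.3 kb and 80.2%.

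Without the highest locus of each library in the total, which in RIP was not among these loci, the fragment shares were 56.6% and 67.5%. Windows of 20 Mb held 4.35% (RIP) and 4.49% (Input) of loci, and windows of 10 Mb held 4.87% and 0.669% of the fragments of this set, or 5.36% and 1.72% without the highest locus of the set, where the counts of loci were alike. Any overlap of 1 bp paired 80.5% and 84.4%, and a reciprocal overlap of 0.8 paired 77.1% and 80.9%. The median log2 FPKM ratio of paired loci, −2.04, was −3.79 with a pseudocount of 0.1, −1.48 without a filter on low values and −0.48 for fragments, and turned to 0.76 after rescaling to the same upper quartile.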
